A study of Schmidtea mediterranea with 100 samples.

Results

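Single cells of the planarian flatworm Schmidtea mediterranea were compared by whether they carried transcripts of chd4, given in the count table as chd4_Mi-2. The cells came from the RNA-low gate, a FACS gate set on DNA content (Hoechst) and RNA content (pyronin Y) in dissociated animals of CIW4, a clonal asexual strain kept in salt solution and fed beef liver. There were 96 such cells among the 100 samples of the series, the other 4 being bulk libraries, 1 each for the PM, S/G2/M, G1 and RNA-low gates. Cells were chosen by their own read counts. Of the 96 cells, 79 had at least 500 detected rows, meaning transcripts above 0 reads. Of these 79, 49 had 5 or more chd4 reads (chd4-high cells) and 25 had 0 (chd4-zero cells), which gives 74 cells, and 5 cells with 1 to 4 reads belonged to neither group. The labels name no animal, pool or plate for the cells, so all of them count as 1 sample. No test between the groups was possible and no p is given. Intervals are exact 95% binomial intervals and cover counting error only. Smart-seq2, the full-length protocol behind the single-cell libraries, tags no molecules, so reads are not independent molecules.

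The gene chd4 encodes the ATP-driven chromatin remodeller Mi-2, a core subunit of the NuRD complex, which joins nucleosome remodelling to histone deacetylation. Neoblasts are the dividing stem cells of adult planarians and are recognised by transcripts of the piwi genes. In planarians, chd4 is known to be needed for neoblasts to give rise to differentiating progeny. By its title the series set out to identify neoblasts that cycle slowly and answer to TOR, and the comparison asks what else differed between low-RNA cells with and without chd4 reads.

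The level of chd4 varied widely among the cells that had it. In the 49 chd4-high cells the reads ran from 5 to 5088 with a median of 80, and the level ran from 24.7 to 19970 CPM with a median of 548, where CPM is the usual counts-per-library scale, taken here over the reads of each cell outside ribosomal RNA. Just above the cut, 3 cells had 5 reads and 2 had 6. Just below it, the 5 cells in between had 1, 2, 2, 4 and 4 reads. The cut therefore fell within a continuous range of low counts, while the upper part of the chd4-high group lay far above it. The floor of 500 rows fell between a cell with 483 and a cell with 531 detected rows.

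**Figure D1:**
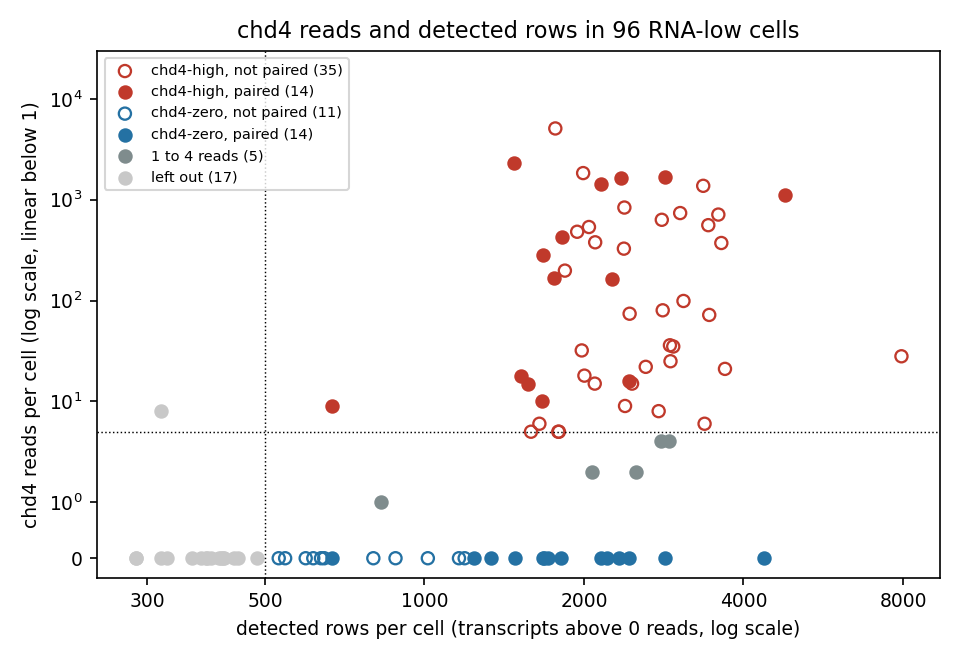
Reads of chd4 per cell (log scale, linear below 1) against the number of detected rows per cell (log scale) for the 96 RNA-low cells, with dotted lines at 5 reads and 500 rows. Filled red and blue points are the 14 pairs, open points are unpaired cells, and grey points are the 5 cells with 1 to 4 reads and the 17 cells left out; the chd4-zero cells reach from 531 to 4368 rows, the median chd4-high cell has 2379 rows, within that range, and 2 chd4-high cells lie above it.

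The groups differed in complexity before any other transcript was compared. Detected rows ran from 668 to 7946 with a median of 2379 in chd4-high cells, and from 531 to 4368 with a median of 1240 in chd4-zero cells. The ranges overlapped, but 11 of the 25 chd4-zero cells had 1191 rows or fewer and found no partner. Reads outside ribosomal RNA had similar medians, 152963 in chd4-high and 156620 in chd4-zero cells. Their lowest values were 41279 and 856. The chd4-zero group held 2 very shallow libraries, with 856 and 2208 such reads, in which a count of 0 says little about chd4. Ribosomal RNA took a median of 88.4% of reads in chd4-high and 78.7% in chd4-zero cells. Across the 79 kept cells, Spearman's rho between chd4 CPM and detected rows was 0.47, a description over cells that share 1 sample.

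Cells were therefore paired 1 to 1 on detected rows, within a gap of 0.25 on the log2 scale, which gave 14 pairs. Paired chd4-high cells had 668 to 4801 rows (median 1789) and paired chd4-zero cells 669 to 4368 (median 1762.5). Paired chd4-high cells had 9 to 2294 chd4 reads with a median of 225. Reads outside ribosomal RNA ran from 41279 to 439682 (median 130803) in the former and from 2208 to 615074 (median 192094) in the latter. A transcript was counted as detected in a cell at 5 or more reads, and the share of cells with it was compared. With 14 cells a side, 1 cell moves a share by 7.14 percentage points.

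Neoblast transcripts were frequent in both groups. At least 1 of the 4 pan-neoblast genes (piwi-1, piwi-2, piwi-3 and bruli) was detected in 47 of all 49 chd4-high cells (95.9%, interval 86.0 to 99.5) and in 24 of all 25 chd4-zero cells (96.0%, interval 79.6 to 99.9). In the 17 cells left out for few rows the number was 6. In the pairs the numbers were 12 of 14 and 14 of 14. This measure was near its ceiling in both groups, and single genes of the list differed more. Within the pairs, the summed level of the 4 genes ran from 0 to 13396 CPM (median 5660) in chd4-high cells and from 83.9 to 10676 CPM (median 2539) in chd4-zero cells. The sum was higher in the chd4-high cell in 8 pairs and in the chd4-zero cell in 6. Outside ribosomal RNA, 44 transcripts had reads in at least 90 of the 96 cells. They took 18.1 to 80.0% (median 31.9%) of the reads that CPM is taken over in paired chd4-high cells. In paired chd4-zero cells they took 16.1 to 87.6% (median 33.7%). The pairing did not match this share, which bears on every CPM of a cell given here.

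The 4 genes did not move together. Reads of piwi-2, which encodes a PIWI protein, ran from 0 to 2436 (median 350.5) in paired chd4-high cells and from 0 to 3122 (median 50) in paired chd4-zero cells. It was detected in 12 of 14 (85.7%, interval 57.2 to 98.2) and 10 of 14 (71.4%, interval 41.9 to 91.6). Its CPM was higher in the chd4-high cell in 10 of 14 pairs, and the ranges overlapped throughout. Reads of piwi-3, also of the PIWI family, ran from 0 to 289 (median 69) and from 0 to 1170 (median 5), with detection in 10 and 7 cells. For piwi-1, the standard neoblast marker, reads ran from 0 to 644 (median 3) in chd4-high and from 0 to 694 (median 15) in chd4-zero cells, with detection in 7 and 10 cells. The RNA-binding protein gene bruli, needed for neoblast maintenance, was detected in 4 and 6. All 4 pairs of intervals overlapped. Of the 4 genes, 2 had a higher and 2 a lower share in chd4-high cells, and the median difference of 0 points equalled that over all 956 transcripts compared.

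**Figure D2:**
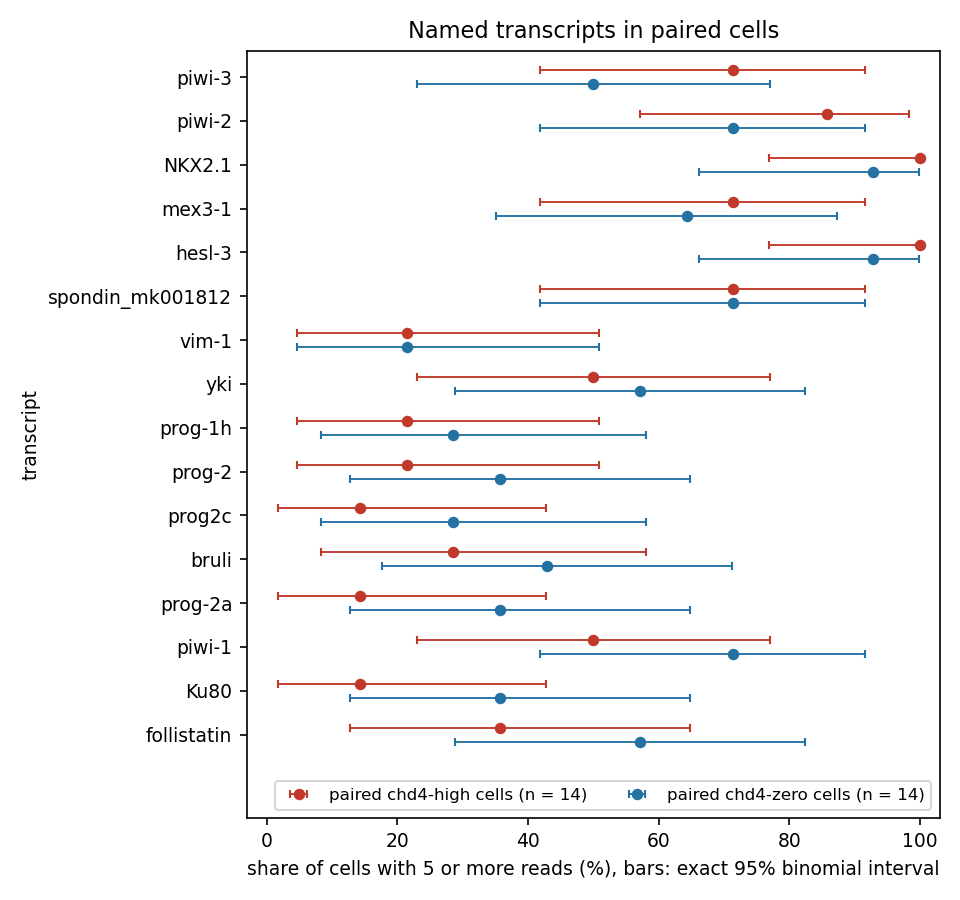
Share of cells with 5 or more reads (%) for the 16 named transcripts outside ribosomal RNA that were detected in at least 20% of the paired cells, in the 14 paired chd4-high (red) and 14 paired chd4-zero cells (blue), with exact 95% binomial intervals. The red and blue intervals overlap for every transcript shown, and the differences run from 21.4 points for piwi-3 to -21.4 points for follistatin.

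Without pairing, piwi-3 was detected in 36 of 49 chd4-high cells (73.5%) and 10 of 25 chd4-zero cells (40.0%), and piwi-2 in 47 (95.9%) and 19 (76.0%). For piwi-1 the numbers were 22 (44.9%, interval 30.7 to 59.8) and 12 (48.0%, interval 27.8 to 68.7). Detection of piwi-1 was thus at a similar share with and without chd4 reads when all cells were taken.

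Among the RNA-binding regulators, a difference in mex3-1 became smaller with pairing on detected rows. mex3-1, known in planarians for promoting differentiating progeny, was detected in 41 of 49 chd4-high cells (83.7%, interval 70.3 to 92.7) and 12 of 25 chd4-zero cells (48.0%, interval 27.8 to 68.7), a difference of 35.7 points. In the pairs it was detected in 10 and 9 cells, a difference of 7.14 points, and its CPM was higher in the chd4-zero cell in 8 of 14 pairs. The median of its reads was 25.5 in paired chd4-high and 218 in paired chd4-zero cells. When 21 pairs were instead made on reads outside ribosomal RNA, which left medians of 2379 and 1334 detected rows, the difference was 42.9 points. The 17 cells left out had it in 0 cells. The number of detected rows moved with the unpaired difference, and its part in it was not tested.

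The Musashi gene msi-1, which encodes an RNA-binding protein, was detected in 4 of 14 paired chd4-high cells (28.6%, interval 8.39 to 58.1) and 0 of 14 paired chd4-zero cells (interval 0 to 23.2), with at most 182 reads in the former and 0 in every cell of the latter. Over all cells the numbers were 6 of 49 (12.2%, interval 4.63 to 24.8) and 0 of 25 (interval 0 to 13.7). The intervals overlapped in both comparisons, and msi-1 lay below the 20% of paired cells needed to enter the comparison across all transcripts. In the bulk libraries, which the choice of cells did not use, msi-1 stood at 38.9 CPM in RNA-low and 1.77 CPM in S/G2/M, with G1 at 21.4 and PM at 20.5. The bulk level of chd4 was 611 CPM in RNA-low and 92.2 in S/G2/M, with G1 at 362 and PM at 285, each from 1 library per gate. Bulk CPM was taken over all reads, ribosomal RNA included, so it is not on the scale of the cells. The msi-1 relative msi-2 was detected in 3 and 2 paired cells, and mex3-3 in 1 and 1. In bulk, msi-2 stood at 43.8 CPM in RNA-low and 9.91 in S/G2/M, and mex3-3 at 9.76 and 2.41, so the bulk direction was not particular to msi-1. Of the 5 genes of this list, 4 were detected in a paired cell. Of the 5, 3 had a higher share in chd4-high cells and 2 an equal one, and the median difference was 7.14 points. Only 1 of the 5 was among the 956 transcripts compared, of which 424 had a higher, 345 a lower and 187 an equal share.

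Early epidermal progeny transcripts mark postmitotic descendants of neoblasts on their way to the epidermis. Of the 17 prog-1 and prog-2 family members in the table, 12 were detected in a paired cell. Of these 12, 9 had a lower share in chd4-high cells, 1 a higher share and 2 an equal one. Only 4 of the 17 were among the 956 transcripts compared, of which 345 had a lower, 424 a higher and 187 an equal share. The other members were detected in too few paired cells to enter that comparison, so the counts are not like for like. The median difference over the 17 was -7.14 points, or 1 cell, against 0 over the 956. Over the 4 members compared it was -14.3 points. The family members are close relatives among which the counting could have divided reads, so they are not independent. prog-2a was detected in 2 chd4-high and 5 chd4-zero cells of the pairs, with at most 10 and 55 reads. prog-2 was detected in 3 and 5, prog2c in 2 and 4, and prog2e in 1 and 3. At least 1 member was detected in 8 of 14 chd4-high cells (57.1%, interval 28.9 to 82.3) and 10 of 14 chd4-zero cells (71.4%, interval 41.9 to 91.6). The summed level ran from 0 to 1316 CPM (median 58.1) and from 0 to 2264 CPM (median 135). The highest of these sums, 2264 CPM, came from the paired chd4-zero cell with 2208 reads outside ribosomal RNA. Over all cells, at least 1 member was detected in 30 of 49 (61.2%) and 17 of 25 (68.0%), and in 7 of the 17 cells left out (41.2%).

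**Figure D3:**
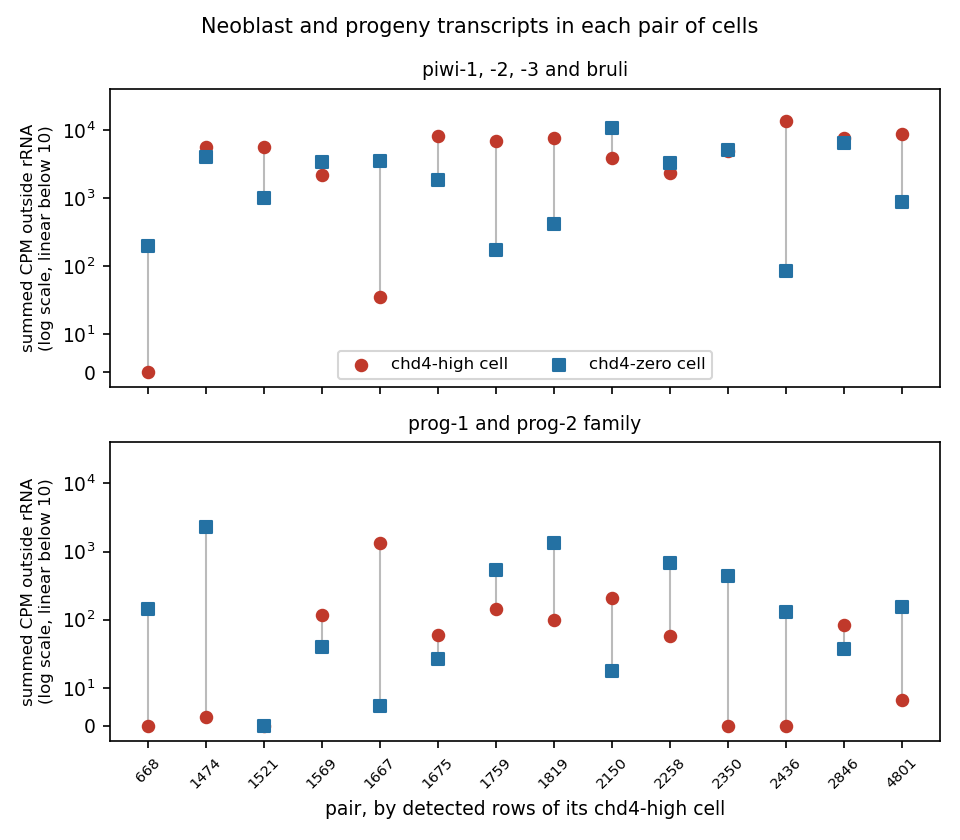
Summed CPM (log scale, linear below 10) of the 4 pan-neoblast genes (top) and of the prog-1 and prog-2 family (bottom) in the chd4-high cell (red circle) and the chd4-zero cell (blue square) of each of the 14 pairs, ordered by the detected rows of the chd4-high cell. The chd4-high cell is higher in 8 pairs for the neoblast genes, and in 5 pairs for the progeny family with 8 pairs the other way and 1 equal.

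Replication and mitosis transcripts were nearly absent from the pairs. PCNA and mcm2, both of DNA replication, were at 5 reads in no paired cell. CyclinB2, which encodes a mitotic cyclin, was detected in 1 paired chd4-high cell, with 403 reads, and in no chd4-zero cell. Over all cells, at least 1 of the 3 was detected in 7 of 49 chd4-high cells (14.3%, interval 5.94 to 27.2) and 0 of 25 chd4-zero cells (interval 0 to 13.7). These intervals overlapped.

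Chromatin and transcription genes were sparse. Of the chromatin and PIWI pathway list, the Tudor gene tdrd112 was detected in 3 paired chd4-high and 1 paired chd4-zero cell, and the Polycomb group gene Bmi-1 in 1 and 1. Of the 10 Mediator genes, whose complex links transcription factors to RNA polymerase II, 8 were detected in a paired cell, 5 with a higher and 3 with a lower share in chd4-high cells, and the median difference was 3.57 points. None of the 10 was among the 956 transcripts compared, of which 424 had a higher and 345 a lower share. Med8 was detected in 3 and 0 cells, Med1 in 3 and 1, Med7 in 2 and 0 and Med12 in 2 and 1. At least 1 Mediator gene was detected in 8 of 14 chd4-high cells (57.1%, interval 28.9 to 82.3) and 5 of 14 chd4-zero cells (35.7%, interval 12.8 to 64.9), and in none of the 17 cells left out. These intervals overlapped as well.

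Of 18 developmental transcription factors, 10 were detected in a paired cell, 6 with a higher share in chd4-high cells, 2 with a lower and 2 with the same. Only 1 of the 18 was among the 956 transcripts compared, of which 424 had a higher and 345 a lower share. The homeobox gene hnf6 was detected in 2 chd4-high cells and no chd4-zero cell of the pairs, and arx in 0 and 2. The Hes family gene hesl-3 was detected in 14 and 13 cells but also in all 17 cells left out. The presence of hesl-3 therefore did not set the groups apart. Its median was 194 CPM in paired chd4-high and 388 CPM in paired chd4-zero cells, while RNA-low bulk had 1.06 CPM on its own scale. The reason for this gap was not tested.

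Among signalling genes, yki and follistatin were detected often and the pathway lists sparsely. The Hippo effector gene yki was detected in 7 and 8 paired cells, and in 12 of the 17 left out. Follistatin, which encodes an activin antagonist, was detected in 5 and 8 cells, and in 6 of those left out. The beta-catenin gene Bcat-1 was detected in 3 and 2. Of 11 Wnt pathway genes, 2 had a higher and 3 a lower share in chd4-high cells, and at least 1 was detected in 5 cells of each side. Of 6 Hedgehog pathway genes, 1 had a higher share, gli-1 with 1 and 0 cells, while fused and SuFu had 1 and 1. Of 6 cilia genes, Kif3B had 1 and 0 and IFT88 0 and 1. The DNA repair gene Ku80 was detected in 2 and 5 paired cells, and in 7 of the 17 cells left out, shares of 14.3%, 35.7% and 41.2%.

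Markers of other cell types were in few paired cells of either group, apart from 1 transcript that was in nearly every cell. The epidermal marker vim-1 was detected in 3 and 3 paired cells, at no more than 8 and 49 reads. The neuronal gene elav-2 was detected in 1 and 1, and COE, a neuronal regulator, in none. The muscle gene titin was detected in 0 and 1, the gamma neoblast marker NXK2.2_Dth-1 in none, and the secretory mucin in 1 and 1. Of the cathepsin-positive and parenchymal list, NKX2.1_Dth-2 was detected in 1 and 0, while the row headed NKX2.1 was detected in 14 and 13 and in all 17 cells left out. The NKX2.1 row had medians of 1510 and 1231 CPM in the paired cells, while RNA-low bulk had 18.1 CPM on its own scale. The intestine genes porcnA and porcn-B were detected in 3 and 1 and in 1 and 0. Over all cells, at least 1 intestine gene was detected in 20 of 49 chd4-high cells (40.8%, interval 27.0 to 55.8) and 2 of 25 chd4-zero cells (8.00%, interval 0.984 to 26.0). These intervals did not overlap, and neither did those of mex3-1 and of the RNA-binding regulator list over all cells. Detected rows differed in the same direction, and shares were shifted in general. Without pairing, the median difference over 923 transcripts was 14.5 points, and 102 (11.1%) were at least 30 points higher and none as much lower. In the pairs the intestine numbers were 4 of 14 (28.6%, interval 8.39 to 58.1) and 1 of 14 (7.14%, interval 0.181 to 33.9), whose intervals overlapped.

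The comparison was then made across all transcripts. Of the 38237 transcripts in the table, 956 were detected in at least 20% of the paired cells, chd4 aside. Of these, 424 had a higher share in chd4-high cells, 345 a lower share and 187 the same share, with a median difference of 0 points. At a difference of 30 points or more, which takes 5 cells, 34 transcripts (3.56%) were called higher and 11 (1.15%) lower in chd4-high cells. None of the 19 named transcripts among the 956 was called in either direction. The exact intervals of the shares overlapped for all 956, all called ones included, among which the largest differences were 50 points. Leaving out the pair that holds the shallow cell of 2208 reads, with a call at 35 points so that 5 cells were again needed, gave 25 higher and 16 lower of 908. Without pairing, 102 of 923 transcripts (11.1%) were called higher, none (0.0%) lower, and the median difference was 14.5 points. Of the 34 called higher in the pairs, 15 were also 30 points higher without pairing. Of the 11 called lower, 10 had a lower share without pairing and none by 30 points.

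**Figure D4:**
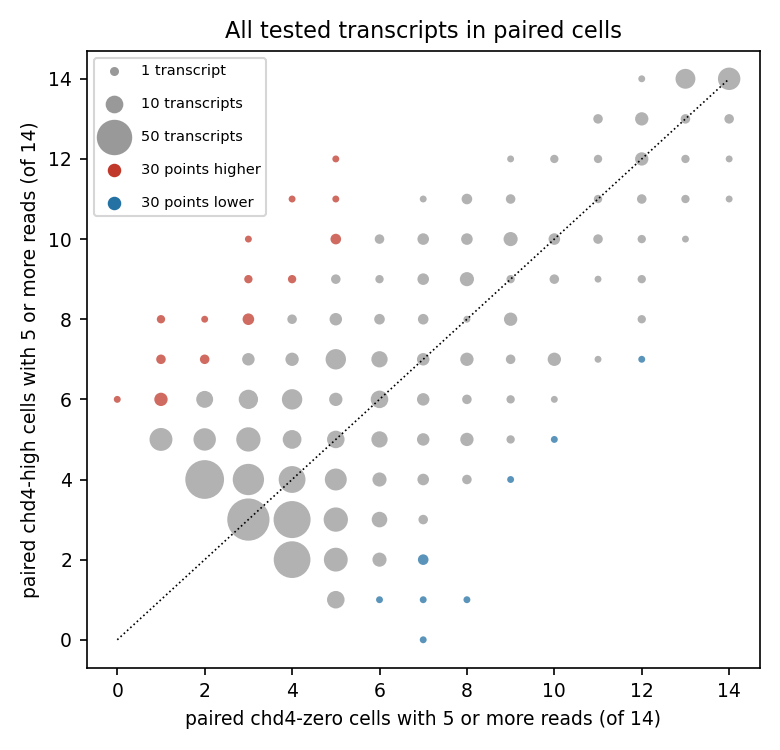
Number of paired chd4-high cells against number of paired chd4-zero cells with 5 or more reads, for the 956 transcripts detected in at least 20% of the 28 paired cells, with area growing with the number of transcripts at each position and the dotted line marking equal numbers. The 34 red transcripts are at least 30 points higher and the 11 blue ones at least 30 points lower in chd4-high cells, and most transcripts lie near the line.

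The called transcripts carry no gene name in the tables, and they were singled out here by size alone. SmedASXL_037683 was detected in 12 paired chd4-high cells (85.7%, interval 57.2 to 98.2) and 5 paired chd4-zero cells (35.7%, interval 12.8 to 64.9), with a median of 18.5 against 0 reads. Over all cells it was detected in 40 of 49 and 6 of 25, and in 0 of the 17 cells left out. SmedASXL_076182 was detected in 11 and 4 paired cells, and in 39 of 49 and 5 of 25 over all cells. In the other direction, SmedASXL_077255 was detected in 0 chd4-high and 7 chd4-zero cells of the pairs, and in 10 of 49 and 7 of 25 over all cells. SmedASXL_077677 was detected in 1 and 8 paired cells, and in 12 of 49 and 9 of 25 over all cells. With all cells taken, the 2 higher transcripts differed by over 50 points. All cells include the paired cells by which the 2 were picked, so this gives no separate support. The median difference with all cells taken was 14.5 points over 923 transcripts. After thinning to 50000 reads the difference of SmedASXL_037683 was 7.69 points and that of SmedASXL_076182 was 38.5. For the 2 lower transcripts the differences with all cells taken were -7.59 and -11.5 points.

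The bulk libraries gave a readout of the called transcripts that the choice of cells did not use. In the RNA-low bulk library the 34 called higher had a median of 299.5 CPM and the 11 called lower a median of 8.43 CPM, against 95.2 CPM over all transcripts compared. The 2 higher transcripts given above departed from their set. SmedASXL_037683 stood at 0.454 CPM in RNA-low and 5.53 in PM, and SmedASXL_076182 at 13.7 and 46.9. Of the 2 lower ones, SmedASXL_077255 stood at 8.43 and 8.46, and SmedASXL_077677 at 14.8 and 35.6. The log2 ratio of RNA-low to S/G2/M had a median of 0.14 for those called higher, 0.33 for those called lower and 0.12 for all. For RNA-low to G1 the medians were 0.20, 0.20 and 0.13. For RNA-low to PM they were 0.60, -0.91 and 0.33. These ratios rest on 1 library per gate, after trimmed mean of M values scaling and with 0.5 CPM added, and were not tested. They moved with the scaling: with library totals in its place, the medians to S/G2/M were 0.37, 0.55 and 0.33, those to G1 were 0.12, 0.12 and 0.04, and those to PM were 0.66, -0.85 and 0.38.

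Across the 79 kept cells, the named transcripts most like chd4 were ranked by Spearman's rho after both levels had been adjusted for detected rows. The first was piwi-2 with 0.31 (0.37 unadjusted), followed by the 28S ribosomal RNA transcripts with 0.26 and 0.19, the mitochondrial 16S ribosomal RNA with 0.08 and bruli with 0.04. For piwi-1 the adjusted value was 0.00 (0.03 unadjusted) and for prog-2 it was -0.32 (-0.13 unadjusted). These are weak correlations in sparse counts over cells that share 1 sample and a denominator, given as a description.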

How the data were processed

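The authors deposited whole-number read counts per transcript for 96 single RNA-low cells and 4 bulk libraries, not normalized. Per the submitters' processing notes, bcl2fastq 1.8.3 and Bowtie2 were used; how reads were counted, against which transcripts and with what filters is not given in the sources used here. Per the labels' protocols, single cells were made with Smart-seq2 and bulk samples with TruSeq. In the bulk table, G0 was read as RNA-low, since G0 is also the prefix of every RNA-low cell's column.

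Members and gene lists were chosen with earlier results of these data known. Cells were paired on log2 detected rows by optimal assignment (scipy 1.17.1, Python 3.11.15), detection was set at 5 reads, transcripts needed detection in 20% of paired cells, and calls took 30 percentage points. Total reads ranged from 1882 to 5293493 in the 74 cells. Bulk CPM used TMM in edgeR 4.0.16 under R 4.3.3, with ribosomal RNA kept in the library totals. Named were chd4, the pan-neoblast genes, up to 4 members of each list and up to 10 other named transcripts each way by difference in share, and 2 unnamed ones each way; 1 transcript that the rule names is not reported here. No doublet caller was run; leaving out the 5% of cells with most rows was tried instead. The pairing and calling were tested on simulated data.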

Additional observations from a re-analysis of the deposited data

Results flagged for a closer look

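Reads of chd4 also appeared outside the cells compared. Of the 17 cells left out for fewer than 500 detected rows, 16 had 0 chd4 reads and 1 had 8 reads, with 319 detected rows and 33529 reads outside ribosomal RNA. That cell would have met the cut of 5 reads, and it was marked for a closer look because its count lies outside the cells compared and above 0.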

How the results depend on the processing

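No paired analysis was possible because the cells carry numbers that only name them and the bulk gates have 1 library each; the pairs of cells used here rest on detected rows alone. Counts of transcripts called higher and lower in chd4-high cells were 34 and 11 of 956 compared in the main comparison. These counts moved by over 1.5 times in at least 1 direction under many of the alternatives. Some alternatives also changed the number of pairs, and so the cells a call takes. Most changed the number of transcripts compared, given here after each pair of counts, so the counts alone do not show how the called share moved. The counts were 102 and 0 of 923 without pairing, and 112 and 2 of 882 with pairing on reads outside ribosomal RNA. They were 37 and 42 of 957 at a caliper of 0.1, and 51 and 17 of 841 at 0.5. Detection at 1 read gave 52 and 44 of 1946, and at 10 reads 19 and 9 of 675. A chd4-high cut of 1 read gave 39 and 13 of 1011, and of 50 reads 73 and 47 of 1270. A cut of 10 reads and a floor of 1000 rows each gave 78 and 35 of 911 from 13 pairs. Leaving out pair 6 gave the same counts, and at a call taking 5 cells it gave 32 and 10. Cells thinned to 50000 reads outside ribosomal RNA (48 of 49 and 20 of 25 cells were deep enough) gave 54 and 23 of 500. Leaving out the 5% of cells with most rows gave 59 and 39 of 778 from 13 pairs, as leaving out pair 10 did. At a call taking 5 cells, leaving out pair 10 gave 19 and 7. A call at 40 points gave 13 and 3, intervals that do not overlap 0 and 0, and a 2-fold difference in summed CPM 255 and 212, each of 956. Leaving out each pair, with 778 to 911 transcripts compared, gave 59 to 88 higher and 29 to 60 lower. The 60 came without the pair that holds the shallow chd4-zero cell of 2208 reads. At 13 pairs a difference of 30 points takes 4 cells and not 5, which raises the counts by construction; at a call of 35 points, which again takes 5 cells, the ranges were 19 to 33 and 6 to 16. Of 2 alternatives chosen after seeing the data, all cells with 1400 to 3000 rows gave 26 and 28 of 960. The other, pairs with over 1400 rows in both cells, gave 53 and 41 of 1151. A filter of 10% gave 46 and 15 of 3461, and no filter gave the same counts of 16114.

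For the list medians, leaving out each pair gave -3.85 to 3.85 points for the pan-neoblast, -7.69 to 0 for the early epidermal progeny and 0 to 0 for the cell cycle list, and the other settings gave -6.25 to 16.7, -9.09 to 0 and 0 to 6.12. The share of piwi-1 was 34.0 points lower in chd4-high cells among all cells with 1400 to 3000 rows, but 7.69 points higher after thinning. With 14 cells a side, even differences of 50 points had intervals that overlapped.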

Other observations

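The 5 kept cells with 1 to 4 chd4 reads, which entered neither group, had 828 to 2888 detected rows (median 2506) and a summed pan-neoblast level of 1075 to 15762 CPM (median 6290). All 5 had 5 or more reads of piwi-2, 4 had piwi-3 and 3 had piwi-1 and bruli each. The early epidermal progeny sum ran from 2.84 to 375 CPM in them.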
